A study of Mus musculus with 4 samples.

Results

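The genes described here are the ligands and receptors of 4 axon guidance systems as they were read in nuclei of the mouse heart after a neonatal injury. They were taken by symbol: semaphorins of classes 3 to 7 and their plexin receptors, the Slit proteins and their Robo receptors, the ephrins and their Eph receptors, and the netrins Ntn1 to Ntn5 with the Unc5 receptors. The symbols matched 66 of the 21884 genes in the matrices, namely 20 semaphorins, 9 plexins, 3 Slit genes, 4 Robo genes, 8 ephrins, 14 Eph receptors, 4 netrins and 4 Unc5 receptors.

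Each library holds nuclei of 1 whole heart, and the 4 hearts came from wild-type males of the strain C57BL/6J. All 4 animals were themselves injured on day 1 after birth and their hearts were taken 21 days after that injury. By their labels the groups differ in the father: 2 hearts came from offspring of injured fathers and 2 from offspring of uninjured fathers. No heart of an uninjured animal is among the samples, so the effect of the animal's own injury cannot be read here. The sources used here do not give the kind of injury or which fathers and litters the hearts came from. A p-value below, save those of the interaction test, sets a difference between the groups against the spread between hearts within the groups. No p-value here can speak for the spread between fathers or litters. Single-nucleus RNA sequencing counts unique molecular identifiers (UMIs), each standing for 1 captured RNA molecule, near the 3' end of transcripts, in nuclei sorted with a Ter119 antibody to leave out blood cells.

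Axon guidance proteins were named for steering the growing tips of neurons, and most of them also act in vessels, in the forming heart and in immune cells. Semaphorins bind plexins, with secreted class 3 semaphorins mostly needing a neuropilin as co-receptor, and Slit proteins bind Robo receptors. Ephrins and Eph receptors both sit in the membrane and signal between touching cells in both directions, and netrins attract or repel through DCC, neogenin and Unc5 receptors.

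After filtering and doublet removal the libraries held 6791 to 9537 nuclei and 15651493 to 32862239 UMIs, with the fewest of both in uninjured-father heart 2. Between 23 and 33 cell barcodes were shared by each pair of libraries. Nuclei were clustered without the 66 genes and clusters were named by markers, so "pericyte-like" stands for a rebuilt grouping. Each of the 12 classes with at least 100 nuclei had UMIs of every gene of its own marker list. RNA of other cells was present in all classes, as the 12 cardiomyocyte markers summed to 86546 counts per 1000000 UMIs (CPM) or more in cardiomyocyte-like nuclei of each library and still to 7512 to 9660 CPM in pericyte-like nuclei. Haemoglobin and other red cell genes summed to 766 to 1749 CPM over all nuclei in spite of the sort. The lymphatic endothelial-like cluster, of 426 nuclei, held its 7 own markers at 4779 to 5559 CPM but also red cell genes at 423 to 15705 CPM and the melanocyte genes Dct, Tyr and Pax3 at 496 to 1551 CPM. Adipocyte-like nuclei numbered 174, 113, 16 and 7 in the 4 libraries and T- or NK-lymphocyte-like nuclei 203, 84, 68 and 20, so the uninjured-father values of these classes rest on few nuclei.

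A member was counted as detected where some class had at least 20 CPM over the 4 libraries together and at least 10 UMIs. By this rule 49 of the 66 genes were detected, 27 of them ligands and 22 receptors. Sema6b lay just inside the rule at 23.2 CPM in vascular endothelial-like nuclei, and Sema6c just outside at 19.9 CPM in fibroblast-like nuclei. The 17 genes below it were Sema6c, Sema4g, Plxna3, Robo3, Efna2, Efna3, Efna4, Efnb3, Epha1, Epha6, Epha8, Epha10, Ephb6, Ntn3, Ntn5, Unc5a and Unc5d. In all 12 classes 12 members were detected: Epha4, Plxna2, Plxna4, Plxnd1, Sema3c, Sema5a, Sema6a, Sema6d, Slit2, Slit3, Ntn1 and Efna5. A further 9 were detected in 1 class alone: Plxnb3, Sema3b, Sema3e, Sema4f and Ephb3 in Schwann- or glial-like nuclei, Epha5 in endocardial-like, Sema3g in vascular endothelial-like, Epha3 in fibroblast-like and Slit1 in macrophage- or monocyte-like nuclei. Levels in CPM are a share of all UMIs of a class in a library, and long genes give more UMIs in nuclei, so levels are compared between classes and not between genes.

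Of the 49 detected genes, 23 had their highest level in vascular endothelial-like, lymphatic endothelial-like or endocardial-like nuclei, against 15.8% of all 10385 genes detected by the same rule. Vascular endothelial-like nuclei were highest for 10 (Plxna2, Plxnd1, Sema3g, Sema4c, Sema6a, Sema6b, Sema7a, Efna1, Efnb1 and Robo4), lymphatic endothelial-like nuclei for 8 (Sema3a, Sema3d, Sema3f, Ephb1, Ephb4, Efnb2, Unc5b and Ntn1) and endocardial-like nuclei, the lining of the heart chambers, for 5 (Epha4, Epha5, Epha7, Plxna4 and Plxnc1). Schwann- or glial-like nuclei, the sheath cells of nerves, were highest for 7 (Plxnb3, Sema3b, Sema3c, Sema3e, Sema4f, Ephb2 and Ephb3), and fibroblast-like nuclei for 5 (Slit2, Slit3, Robo1, Robo2 and Epha3). Smooth muscle-like nuclei led for Unc5c, Ntn4, Plxnb1 and Sema5b, pericyte-like nuclei, which wrap the capillaries, for Sema5a, Sema6d and Epha2, and macrophage- or monocyte-like nuclei for Sema4a, Plxnb2 and Slit1. Plxna1 and Efna5 were highest in adipocyte-like nuclei, Sema4d in T- or NK-lymphocyte-like and Sema4b in B-lymphocyte-like nuclei. Cardiomyocyte-like nuclei, the largest class with 9454 nuclei, were highest for none when taken as a whole class. A cluster within that class, described below, held Slit3, Epha4 and Epha3 at higher levels than their highest classes did. Likewise a cluster of vascular endothelial-like nuclei led by Gja5 and Bmx held Efna5 at 2805 CPM, against 1659 CPM in adipocyte-like nuclei. It held Efnb2 at 581 CPM, against 479 CPM in lymphatic endothelial-like nuclei, with overlapping ranges. For 27 of the 49 genes the lowest library of the highest class lay above the highest library of every other class, among them all 7 led by Schwann- or glial-like nuclei and 13 of the 23 led by an endothelial class. Over all detected genes this held for 25.5%, and for 30.1% of those highest in an endothelial class. No such share was computed for genes highest in Schwann- or glial-like nuclei, so their 7 members have no like share beside them. The comparison is a description with no test, since other genes shaped the clusters and the 66 did not. The other 22 shared the top with at least 1 other class within the spread of the libraries.

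**Figure D1:**
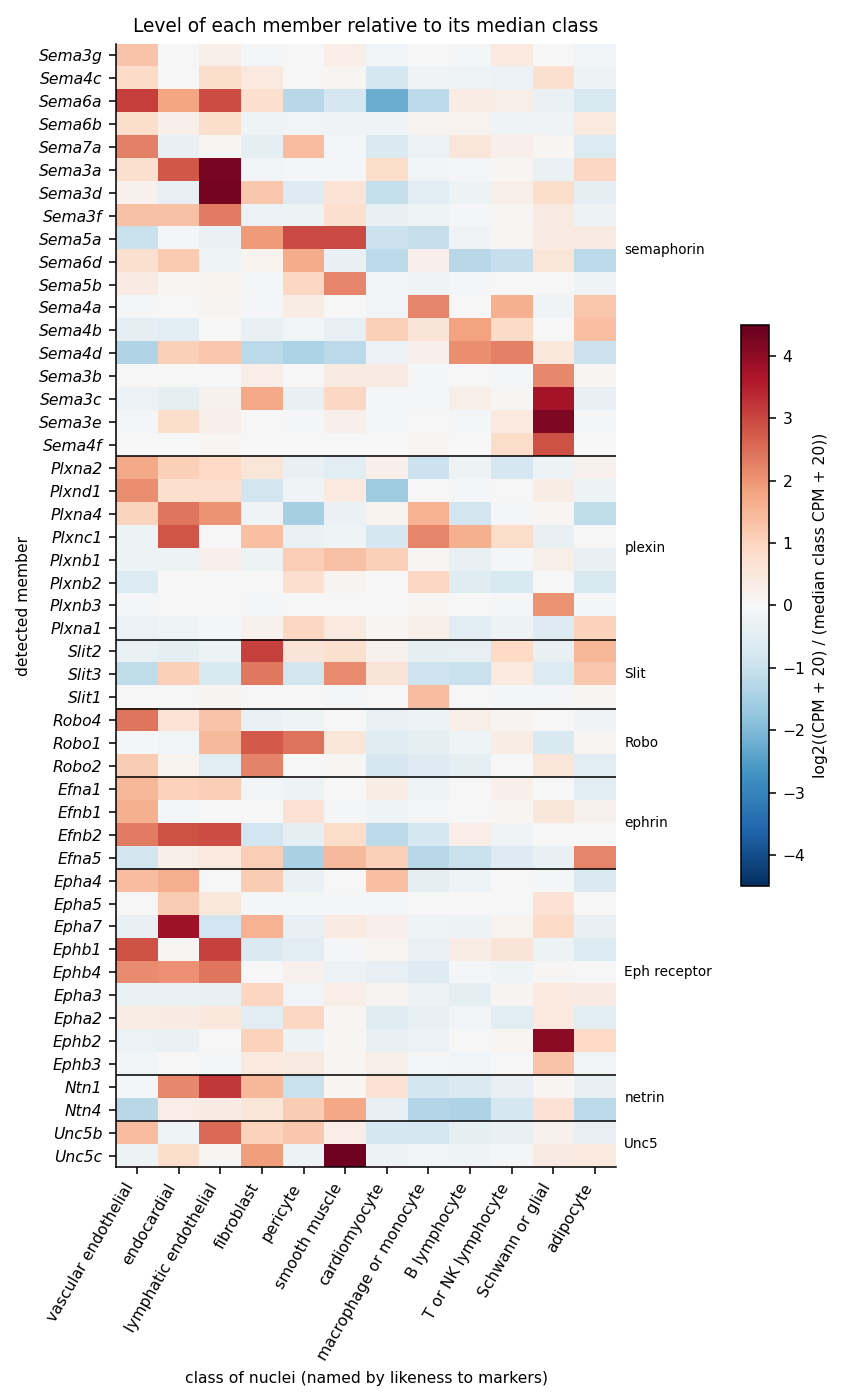
Level of the 49 detected members (one line each, grouped by role) in the 12 classes of at least 100 nuclei, as the log2 ratio of the level in the class to the member's median class with 20 CPM added to both. A reader should see the 7 members led by Schwann- or glial-like nuclei and the blocks under the 3 endothelial classes, which lead 23 members. No member is led by cardiomyocyte-like nuclei taken as a whole class.

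Values in every library are given below in the order injured-father heart 1, injured-father heart 2, uninjured-father heart 1 and uninjured-father heart 2. Unless a sentence says otherwise, a single level is that of the 4 libraries together.

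The 7 detected secreted class 3 semaphorins were highest in lymphatic endothelial-like (Sema3a, Sema3d and Sema3f), vascular endothelial-like (Sema3g) or Schwann- or glial-like nuclei (Sema3b, Sema3c and Sema3e). Sema3d, a secreted ligand known in vascular patterning, was read in lymphatic endothelial-like nuclei at 1023, 858, 1038 and 957 CPM. The next class was fibroblast-like at 95.0 CPM, below all 4 of those libraries. Sema3a, the secreted repellent of sympathetic axons and a ligand of neuropilin 1, stood at 573, 564, 605 and 401 CPM in lymphatic endothelial-like nuclei. Endocardial-like nuclei came second with 232, 202, 146 and 138 CPM, and the ranges did not meet. Sema3e, the ligand of Plxnd1, was read at 451, 291, 441 and 284 CPM in Schwann- or glial-like nuclei, where it rested on 171 UMIs, and its second class was endocardial-like at 17.6 CPM. Sema3c, which acts in outflow tract formation, also led there with 1241, 521, 804 and 639 CPM. Its second class, fibroblast-like, ranged from 142 to 219.6 CPM, below every Schwann- or glial-like library. Further members led by that class were Sema4f at 124 CPM and Sema3b at 75.6 CPM, on 56 and 34 UMIs.

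The membrane-bound semaphorins were highest in several classes, vascular endothelial-like nuclei among them. Sema6a, a transmembrane ligand of Plxna2 and Plxna4, reached 1551, 1945, 1745 and 1609 CPM in vascular endothelial-like nuclei, overlapping lymphatic endothelial-like nuclei at 1492 to 1796 CPM. Sema6d, another transmembrane ligand of plexin A receptors, was highest in pericyte-like nuclei at 514 to 608 CPM, apart from endocardial-like nuclei at 383 to 412 CPM. Pericyte-like nuclei also led for Sema5a at 777 to 962 CPM, but smooth muscle-like nuclei overlapped them at 671 to 957 CPM. Sema7a, which is anchored by a lipid and binds Plxnc1 and integrins, ranged from 131 to 149 CPM in vascular endothelial-like nuclei, above pericyte-like nuclei at 55.8 to 81.2 CPM. Sema4a and Sema4d, best known for signals between immune cells, were highest in macrophage- or monocyte-like nuclei (81.3 CPM) and in T- or NK-lymphocyte-like nuclei (378 CPM). Sema4d in B-lymphocyte-like nuclei ranged from 147 to 492 CPM, so the ranges of these 2 lymphocyte classes overlapped. In their own highest classes the remaining detected semaphorins stood as follows: Sema3f 114 CPM, Sema4b 112 CPM, Sema4c 48.5 CPM, Sema5b 82.8 CPM and Sema3g 33.0 CPM.

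The plexin receptors are described from those with the largest ratio of the highest to the median class. Plxnc1, the receptor of Sema7a, was highest in endocardial-like nuclei with 287, 255, 241 and 215 CPM. Macrophage- or monocyte-like nuclei followed with 253, 122, 114 and 129 CPM, and injured-father heart 1 alone brought the ranges together. Plxna4, which class 3 semaphorins reach through neuropilins, was read at 1666, 1557, 1596 and 1441 CPM in endocardial-like nuclei, apart from lymphatic endothelial-like nuclei at 1047 to 1309 CPM. Plxnd1, the vascular receptor of Sema3e, was highest in vascular endothelial-like nuclei at 541, 399.8, 567 and 576 CPM. All 4 libraries there exceeded the lymphatic endothelial-like class at 156 to 205 CPM. Vascular endothelial-like nuclei also led for Plxna2 at 612 to 710.4 CPM, above endocardial-like nuclei at 358 to 458 CPM. Plxnb3 was seen mainly in Schwann- or glial-like nuclei at 64.5 CPM from 29 UMIs. Plxnb1 at 49.1 CPM, Plxnb2 at 70.1 CPM and Plxna1 at 70.6 CPM overlapped other classes at their highest.

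The neuropilin co-receptors, which are not among the 66 genes, were highest in endothelial classes too. Nrp1 was read at 1739 to 1932 CPM in vascular endothelial-like nuclei and Nrp2 at 1232 to 1442 CPM in lymphatic endothelial-like nuclei. L1cam, a neuronal adhesion molecule that joins the Sema3a receptor, was highest in Schwann- or glial-like nuclei at 256 CPM.

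Of the 6 detected Slit and Robo genes, 4 were highest in fibroblast-like nuclei. Slit2 was highest in fibroblast-like nuclei at 674, 727, 566 and 560.3 CPM, above adipocyte-like nuclei at 153 to 338 CPM. Slit3, a secreted ligand of Robo receptors that lies on chromosome 11 at chr11:35121224-35708507 of GRCm38, was read in fibroblast-like nuclei at 1176, 1939.5, 1327 and 1349 CPM. Smooth muscle-like nuclei overlapped them with 1311, 1204, 1352 and 1107 CPM, and vascular endothelial-like nuclei were lowest of the 12 classes with 106, 141, 94.5 and 88.4 CPM. Slit1, mainly a neuronal ligand, was read at 31.4, 45.7, 31.5 and 18.1 CPM in macrophage- or monocyte-like nuclei. Robo1 was highest in fibroblast-like nuclei at 505, 398, 403 and 371 CPM, apart from pericyte-like nuclei at 289 to 354 CPM. Robo2 was also led by fibroblast-like nuclei, at 191, 184, 185 and 169.5 CPM, with vascular endothelial-like nuclei second at 71.6, 49.6, 99.0 and 90.4 CPM. Robo4, the endothelial Robo receptor, was read at 108, 102, 124 and 188 CPM in vascular endothelial-like nuclei. The lymphatic endothelial-like class came second with 37.1 to 53.3 CPM, below every vascular library.

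The stretches just before the start of Slit2, Robo1 and Robo4 are shown as examples from one ligand and receptor system. Each of these genes has a single start window in the table, and its highest class was overlapped by no other. The same held for the highest class of Robo2, which has 3 start windows, and of Slit1, and neither is shown. They are taken 5' to 3' on the strand of the gene from the RefSeq promoter windows of GRCm38.p6, which begin 250 bases before a start. Bases inside any annotated exon of GENCODE M21 were left out, and the window of Slit3 is not shown since such an exon covers its start region. Capitals mark the GC box letters GGGCGG on either strand. The positions are chr5:47982905-47983137 for Slit2, chr16:72662899-72663148 for Robo1 and chr9:37401722-37401896 for Robo4, all on the plus strand.
Slit2: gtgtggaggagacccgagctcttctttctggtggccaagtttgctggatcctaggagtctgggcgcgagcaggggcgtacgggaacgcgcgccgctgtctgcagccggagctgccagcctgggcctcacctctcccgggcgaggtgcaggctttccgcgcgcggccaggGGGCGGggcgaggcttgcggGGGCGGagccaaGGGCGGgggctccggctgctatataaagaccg
Robo1: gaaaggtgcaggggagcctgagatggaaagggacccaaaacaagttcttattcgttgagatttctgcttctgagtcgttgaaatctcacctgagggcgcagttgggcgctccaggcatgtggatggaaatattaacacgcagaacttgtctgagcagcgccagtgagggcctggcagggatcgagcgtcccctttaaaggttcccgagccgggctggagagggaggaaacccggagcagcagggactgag
Robo4: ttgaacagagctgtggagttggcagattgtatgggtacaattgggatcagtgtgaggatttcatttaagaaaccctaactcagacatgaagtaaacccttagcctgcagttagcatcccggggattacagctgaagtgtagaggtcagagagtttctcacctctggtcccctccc
The Slit2 stretch of 233 bases held 3 GC boxes and, near its end, the TATA box letters TATAAA, and those of Robo1 (250 bases) and Robo4 (175 bases) held no GC box. The RefSeq start of Robo1 used here lies inside the longer annotated gene (chr16:72308306-73046095). Over the RefSeq table, 57 of the 66 members matched by symbol with 73 start windows, and 51 of the 73 windows of 250 bases (69.9%) held GGGCGG on either strand, against 32.7% of all 32851 windows. The TATA box letters TATAAA were in 2 of 73 windows (2.74%), against 12.4% of all windows, and the median number of CG pairs was 15 in members' windows and 6 in all windows. A match of letters is a description of the sequence and not a binding site.

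Of the 13 detected ephrins and Eph receptors, 8 were highest in an endothelial class. Efnb2, the ephrin that marks arterial endothelium, was read at 332, 474, 542 and 698 CPM in lymphatic endothelial-like nuclei. Endocardial-like nuclei at 390.0 to 516 CPM overlapped them, and vascular endothelial-like nuclei stood at 317 CPM. Efna5, a lipid-anchored ephrin, reached 1775, 1557, 1572 and 945 CPM in adipocyte-like nuclei, the last of them from 7 nuclei, and 531 to 1221 CPM in smooth muscle-like nuclei, so the ranges overlapped. Efnb1 ranged from 58.0 to 71.4 CPM in vascular endothelial-like nuclei, apart from every other class, while Efna1 at 62.7 CPM in the same class overlapped the lymphatic endothelial-like one.

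Eph receptors are receptor tyrosine kinases. Ephb2 was highest in Schwann- or glial-like nuclei with 625, 360.0, 421 and 391 CPM, and its second class, fibroblast-like, stayed at 30.2 to 49.5 CPM. Epha7 was highest in endocardial-like nuclei at 655, 627, 982 and 926 CPM, apart from fibroblast-like nuclei at 124 to 149 CPM. Ephb1 was led by lymphatic endothelial-like nuclei at 368, 289, 448 and 215 CPM, overlapping vascular endothelial-like nuclei at 271 to 354 CPM. Ephb4, the receptor of Efnb2 that marks venous endothelium, was close in all 3 endothelial classes: 287 CPM in lymphatic endothelial-like, 231 CPM in vascular endothelial-like and 221 CPM in endocardial-like nuclei. Epha4, a receptor that binds ephrins of both the A and the B kind, was read in endocardial-like nuclei at 201, 224, 269 and 276 CPM, in vascular endothelial-like nuclei at 187 to 205 CPM and in cardiomyocyte-like nuclei at 191, 283, 150.0 and 108 CPM, and these ranges met. The other detected receptors were highest as follows: Epha2 with 39.5 CPM in pericyte-like, Epha3 with 37.9 CPM in fibroblast-like, Ephb3 with 35.6 CPM in Schwann- or glial-like and Epha5 with 27.5 CPM in endocardial-like nuclei.

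The stretch before the start of Epha4 is shown because its father difference varied most between classes, as described with the father groups. It lies at chr1:77515089-77515279 on the minus strand, comes from the same RefSeq table, has 191 bases outside exons and holds 1 GC box, in capitals.
Epha4: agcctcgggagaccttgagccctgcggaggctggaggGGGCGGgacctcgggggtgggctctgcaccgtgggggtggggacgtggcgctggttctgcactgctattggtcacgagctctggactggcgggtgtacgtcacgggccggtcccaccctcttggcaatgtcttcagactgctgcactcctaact

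The 4 detected netrins and Unc5 receptors were highest in lymphatic endothelial-like nuclei (Ntn1 and Unc5b) or smooth muscle-like nuclei (Ntn4 and Unc5c). Ntn1, the secreted netrin that guides axons and vessels, was highest in lymphatic endothelial-like nuclei at 1273, 970.4, 1292 and 1462 CPM. Endocardial-like nuclei, second at 395 to 661 CPM, did not overlap them. Ntn4, a laminin-like netrin of basement membranes, stood at 166, 321, 275 and 229 CPM in smooth muscle-like nuclei and in pericyte-like nuclei at 154 to 163 CPM, just below them. Schwann- or glial-like nuclei at 82.8 to 169 CPM were 1 of 2 classes that reached into the smooth muscle-like range. Unc5c, a repulsive netrin receptor, was highest in smooth muscle-like nuclei at 771, 389, 872 and 665 CPM, and fibroblast-like nuclei followed at 88.1 to 130.1 CPM. Unc5b, the endothelial netrin receptor, was read at 222, 261, 266 and 289 CPM in lymphatic endothelial-like nuclei, above vascular endothelial-like nuclei at 76.8 to 121 CPM. Of the netrin receptors outside the 66 genes, Dcc reached at most 3.32 CPM, from 3 UMIs in B-lymphocyte-like nuclei, while Neo1, which encodes neogenin, was read at 335 CPM in cardiomyocyte-like and 268 CPM in smooth muscle-like nuclei.

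Since the lymphatic endothelial-like cluster also carried melanocyte and red cell genes, its levels were read again in a clustering with doublets kept, which gave a lymphatic endothelial-like cluster of 268 nuclei. Sema3d was at 1125 CPM there, Sema3a at 599, Ntn1 at 1395, Efnb2 at 556, Unc5b at 312, Ephb4 at 345, Ephb1 at 369 and Sema3f at 127 CPM. All 8 members led by the class were thus higher in the smaller cluster.

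Members differed at least 4-fold, with 20 CPM added, between clusters of the same class in 15 contrasts. In each of the 15 all 4 libraries of the higher cluster lay above all 4 of the lower one, as they did in 99.7% of the 383 such contrasts over all genes, so the size asked for nearly fixes this. The cardiomyocyte-like class had 3 clusters: a main one led by Fhl2 (7896 nuclei), one led by genes that include Nppa and Myl4, which are known from the atria (838 nuclei), and one led by genes that include Ankrd1 and Cntn2 (720 nuclei). None of the 12 cardiomyocyte markers was among the 10 leading genes of the last 2 clusters. Slit3 was read at 3309, 3094, 2916 and 2136 CPM in the Nppa and Myl4 cluster, against 132 CPM in the main and 634 CPM in the Ankrd1 cluster. Epha4 was read at 994, 1419, 924 and 832 CPM in the Nppa and Myl4 cluster, 107 CPM in the main and 75.4 CPM in the Ankrd1 cluster. Of the UMIs of the cardiomyocyte-like class, this cluster held 12267 of 20251 for Slit3 and 4681 of 9344 for Epha4. Over the 4 libraries together it held Slit3 at 3033 CPM, above the 1495 CPM of fibroblast-like nuclei, the highest whole class. Epha4 was at 1157 CPM there, above the 235 CPM of endocardial-like nuclei, its highest whole class.

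Epha3 and Unc5c were highest in the same cluster. Epha3 stood at 152, 126, 108 and 76.7 CPM in the Nppa and Myl4 cluster and at 2.32 CPM in the main one. Fibroblast-like nuclei, the highest whole class for Epha3, were at 37.9 CPM. Unc5c was read at 64.6, 78.1, 56.5 and 198 CPM in the Nppa and Myl4 cluster and at 3.31 CPM in the main one. The Ankrd1 and Cntn2 cluster was instead the highest for Robo1, at 76.2, 97.6, 249 and 209.8 CPM against 9.16 CPM in the main cluster, and for Ephb1, at 110.2, 96.7, 169.9 and 198 CPM against 15.8 CPM. Efna5 was at 1369 CPM in that cluster, 742 CPM in the main and 186 CPM in the Nppa and Myl4 cluster. Cntn2 is known from the conduction system of the heart, but no conduction marker list was among the lists used, and the cluster is named by its genes alone.

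**Figure D2:**
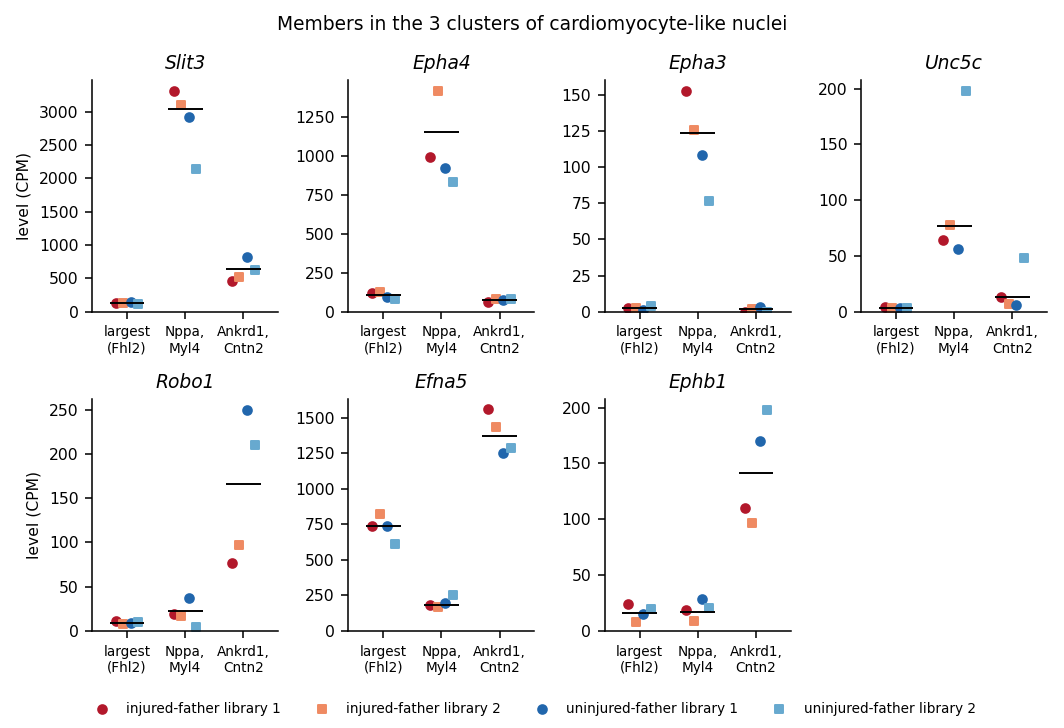
Level in CPM of 7 members in the 3 clusters of cardiomyocyte-like nuclei, with a point for each of the 4 libraries and a line at the level over the 4 libraries together. Slit3, Epha4, Epha3 and Unc5c are highest in the cluster led by genes such as Nppa and Myl4, and Robo1, Ephb1 and Efna5 in the one led by genes such as Ankrd1 and Cntn2.

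Among vascular endothelial-like nuclei, a cluster of 159 nuclei led by Gja5 and Bmx, genes known from arteries, was the highest of the 3 clusters for 4 ligands. Sema3g, a secreted semaphorin known from arterial endothelium, was read there at 290.2, 588, 456 and 554 CPM, against 29.5 CPM in the main cluster (5614 nuclei, led by Ccdc85a) and 4.91 CPM in a cluster led by Kirrel3 and Vegfc (1472 nuclei). Efna5 was at 2929, 2743, 2925 and 2421 CPM in the Gja5 cluster and at 138 and 107 CPM in the other two. Efnb2 stood at 581 CPM there, 374 CPM in the main and 129 CPM in the Kirrel3 cluster. Ntn1 was highest in the Gja5 cluster too, at 483 CPM against 68.0 CPM in the main one. Ephb1 was at 338 CPM in the main cluster and 23.8 CPM in the Gja5 cluster. Unc5b was at 134 CPM in the main, 57.8 CPM in the Gja5 and 14.1 CPM in the Kirrel3 cluster.

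**Figure D3:**
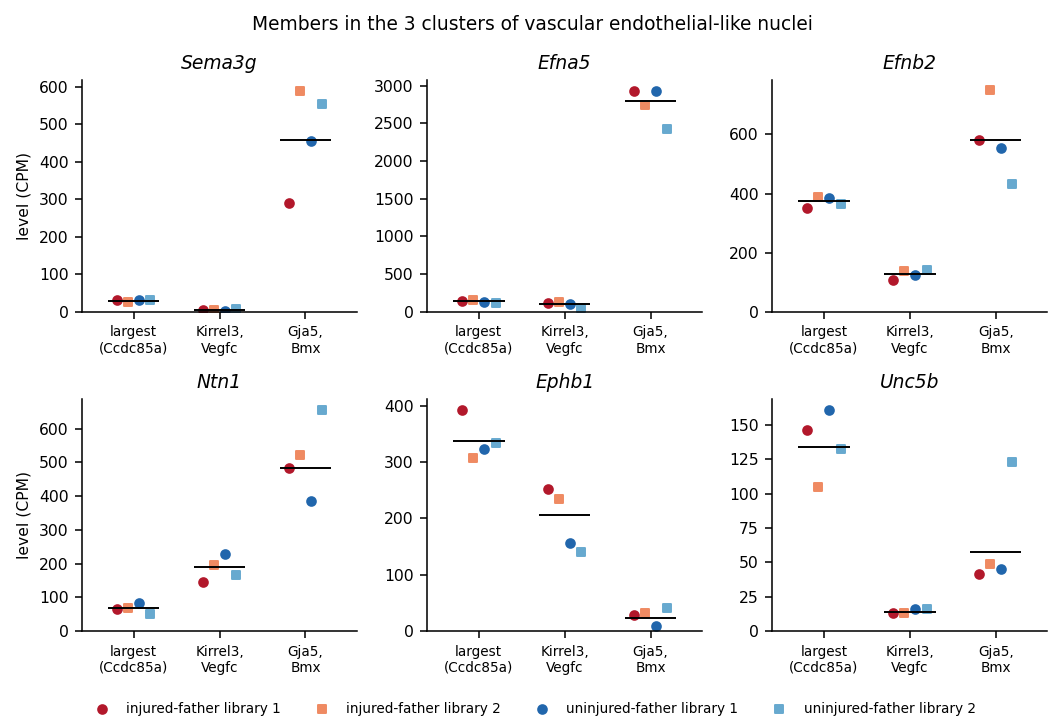
Level in CPM of 6 members in the 3 clusters of vascular endothelial-like nuclei, with a point for each library and a line at the level over the 4 libraries together. Sema3g, Efna5, Efnb2 and Ntn1 are highest in the cluster led by Gja5 and Bmx, and Ephb1 and Unc5b in the main cluster.

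Fibroblast-like nuclei gave 2 such contrasts. Plxna4 was at 608, 527, 601 and 551 CPM in a cluster led by Sntg1 (2345 nuclei) and at 108 CPM in a cluster whose leading genes include Pi16 (2226 nuclei). Sema3c was at 447, 310.0, 409 and 352 CPM in the Pi16 cluster and at 55.4 CPM in the largest cluster (3794 nuclei, led by Gfra1). The 2 genes thus were high in different fibroblast-like clusters.

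The father groups were compared on UMI counts summed per class and library, with edgeR's quasi-likelihood test over all genes and Benjamini-Hochberg adjustment, in the 9 classes with at least 50 nuclei in every library and over all nuclei. Of the 66 genes, only Slit3 in pericyte-like nuclei had an adjusted p under 0.05 in a class, and it was higher in hearts of offspring of injured fathers. Pericyte-like nuclei held 176, 197, 106 and 85.2 CPM of Slit3, from 242, 317, 182 and 87 UMIs. Both injured-father hearts lay above both uninjured-father hearts. The log2 fold change, injured over uninjured, was 0.98 with a standard error of 0.16 (edgeR adjusted p = 0.00457). It was 1 of 39 members tested there, and 0.0396% of the 10104 genes tested in pericyte-like nuclei were called. With doublets kept the log2 fold change was 0.85 and the edgeR adjusted p = 0.0729, so the call was lost, and DESeq2 gave 0.99 with an adjusted p = 0.0485.

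Markers of other cells in the same pericyte-like nuclei were read beside this result. The 10 leading genes of the Nppa and Myl4 cluster, the highest of the cardiomyocyte-like clusters for Slit3, summed to 673, 779, 647 and 507 CPM, higher in both injured-father hearts. Of these sums Lrrc4c, 1 of the 10 genes, made up 318, 257, 339 and 299 CPM. Pericyte-like nuclei were the second-highest class for Lrrc4c, so the level of the sums does not stand for other cells alone. Lrrc4c itself was not higher in both injured-father hearts, so the order of the sums came from the other genes of the 10. The 12 fibroblast markers summed to 1756, 1775, 1742 and 1978 CPM, the 12 cardiomyocyte markers to 7512, 8592, 8153 and 9660 CPM and the 7 smooth muscle markers to 669, 751, 749 and 778 CPM, with uninjured-father heart 2 highest in each. The 8 mesothelial or epicardial markers, whose cells also hold Slit3, summed to 14.6, 19.2, 5.80 and 2.94 CPM, with 5 of the 8 at 0. What part RNA of other cells had in the Slit3 difference was not tested.

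Slit3 was above its uninjured-father hearts in both injured-father hearts in several other classes without passing the adjusted threshold. In endocardial-like nuclei it was read at 575, 806, 349 and 446 CPM, a log2 fold change of 0.85 (standard error 0.19, edgeR adjusted p = 0.173). In vascular endothelial-like nuclei the log2 fold change was 0.48 (edgeR adjusted p = 0.778), in cardiomyocyte-like nuclei 0.63 and in B-lymphocyte-like nuclei 1.31. It was 0.24 in fibroblast-like, the highest class, 0.01 in smooth muscle-like, -0.21 in lymphatic endothelial-like and -0.23 in macrophage- or monocyte-like nuclei. Whether the Slit3 difference itself varied between classes was tested by the interaction of class and father group, and it did not pass (edgeR adjusted p = 0.354). Each heart was also left out in turn. This leaves 1 heart in its group, so the spread comes from the other group alone and the lone heart is assumed to vary like it, and calls made in this way are given as values that depend on 1 heart. In endocardial-like nuclei Slit3 was called without injured-father heart 1 (log2 fold change 1.08, edgeR adjusted p = 0.0195) and without uninjured-father heart 2 (0.99, edgeR adjusted p = 0.000608).

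**Figure D4:**
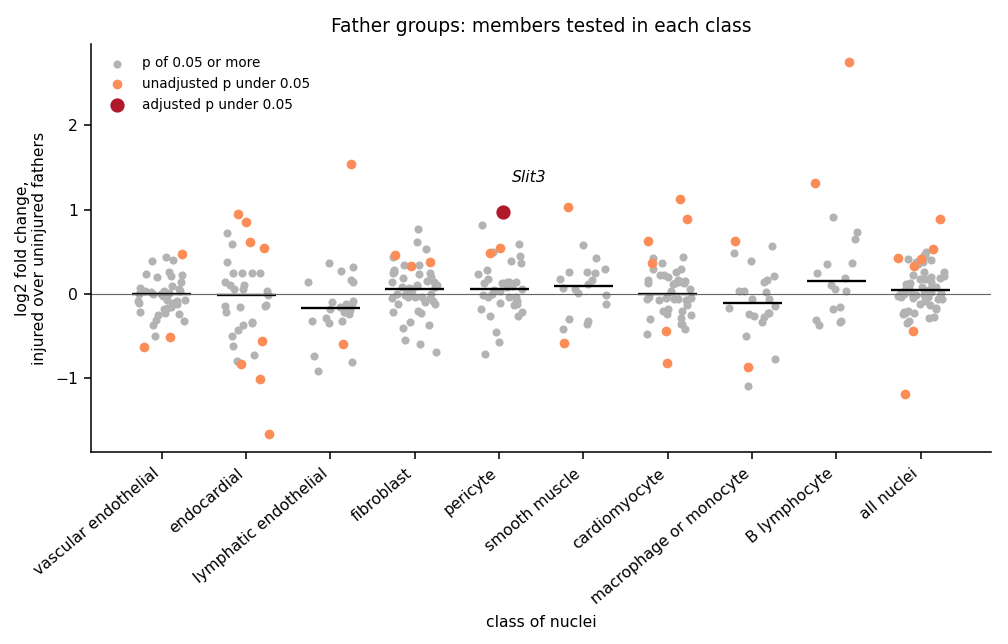
Log2 fold change, injured-father over uninjured-father hearts, of each member tested in the 9 classes and over all nuclei, with a line at the median of the members. Orange points have an unadjusted edgeR p under 0.05, and the red point, Slit3 in pericyte-like nuclei at 0.98, is the only one with an adjusted p under 0.05. The medians lie between -0.17 and 0.15.

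The interaction over the 9 classes, fitted with the library as a block, found 20 of 12195 genes whose father difference varied between classes, or 0.164%. Its p-values rest on the spread left between classes of the same hearts once each heart's own level is taken out. That is not the spread between hearts within the groups. Epha4 (edgeR adjusted p = 0.0132) and Robo1 (edgeR adjusted p = 0.0366) were 2 of the 51 members tested. Epha4 was higher in injured-father hearts in cardiomyocyte-like nuclei, with 191, 283, 150.0 and 108 CPM and a log2 fold change of 0.89 (standard error 0.22, edgeR adjusted p = 0.596 in that class alone). It ran the other way in endocardial-like nuclei, its highest class, with -0.33, and was near 0 in vascular endothelial-like (-0.07) and fibroblast-like nuclei (-0.10). In B-lymphocyte-like nuclei Epha4 had 29, 14, 2 and 1 UMIs, 43 against 3 between the groups, a ratio of CPM of 7.13 with a 95% counting interval from 2.28 to 35.9 (exact, counting error only) and an edgeR adjusted p = 0.997.

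Robo1 was lower in injured-father hearts in cardiomyocyte-like nuclei, at 17.4, 15.8, 33.8 and 24.9 CPM, a log2 fold change of -0.82 (standard error 0.20, edgeR adjusted p = 0.596). In lymphatic endothelial-like nuclei it was 347, 86.9, 94.1 and 37.1 CPM, a log2 fold change of 1.54 (standard error 0.54, edgeR adjusted p = 0.654). Injured-father heart 1 alone was high there, and without it the log2 fold change was 0.26. Without injured-father heart 2 it was 2.21 and passed the threshold, in a fit where the high heart is the only injured-father heart and its own spread is not measured. Fibroblast-like nuclei, the highest class for Robo1, gave 0.24 and pericyte-like nuclei -0.12.

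The make-up of the cardiomyocyte-like class is given beside these values. The Nppa and Myl4 cluster, high in Epha4, Epha3 and Slit3, held 10.8%, 13.2%, 7.76% and 3.39% of the cardiomyocyte-like nuclei, more in both injured-father hearts. The Ankrd1 and Cntn2 cluster, high in Robo1, held 7.54%, 7.18%, 8.53% and 6.97%, and the groups overlapped. Robo1 itself was lower in both injured-father hearts inside that cluster, at the values given with the clusters. Within the main cluster alone the log2 fold changes were 0.46 for Epha4, -0.06 for Epha3, 0.003 for Robo1 and -0.06 for Slit3. With the largest cluster of each class only, the interaction called none of the 52 members tested and 5 of 12177 genes. Whether it called members, and how many genes it called in all, also depended on which heart was left out.

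**Figure D5:**
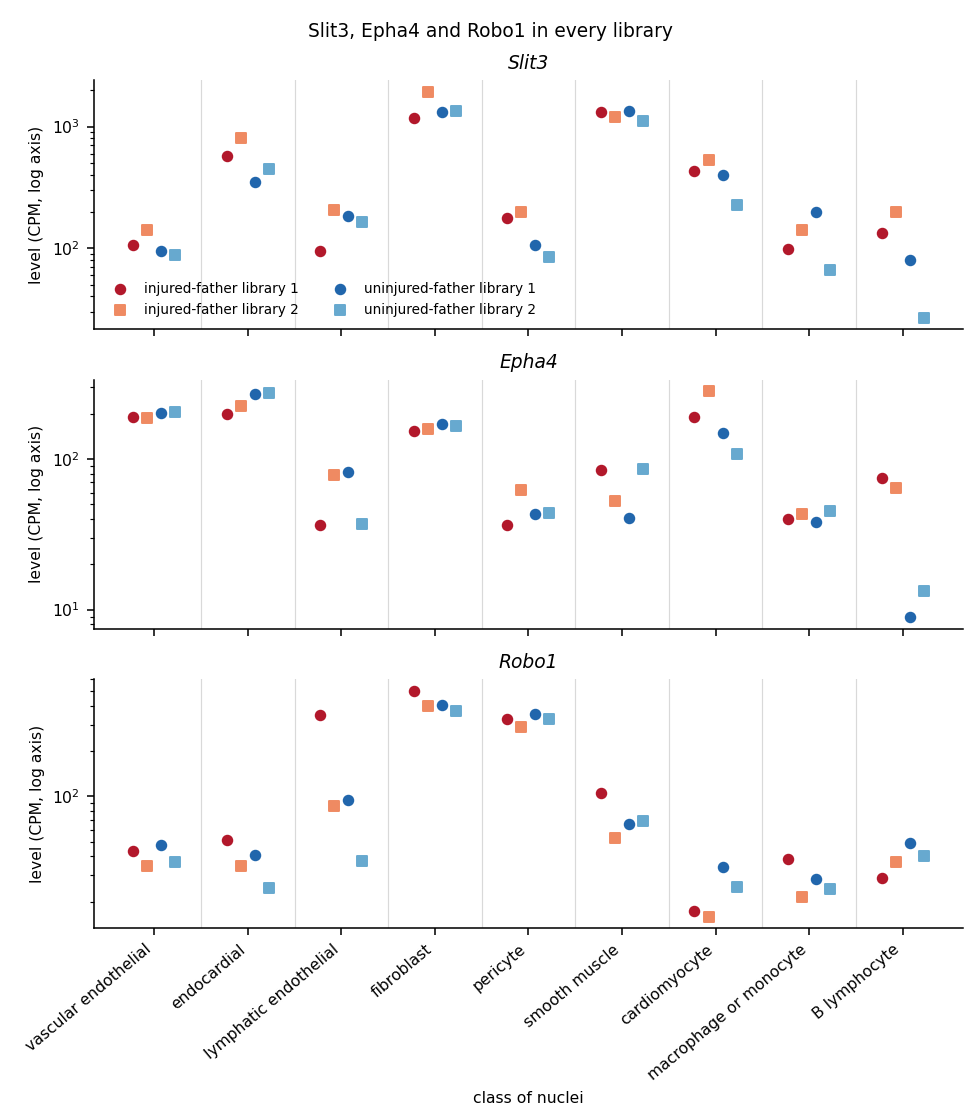
Level of Slit3, Epha4 and Robo1 in CPM on a log axis in each library of the 9 tested classes, coloured by father group. Slit3 is higher in both injured-father hearts in pericyte-like and endocardial-like nuclei, Epha4 in cardiomyocyte-like nuclei, and Robo1 is lower in both in cardiomyocyte-like nuclei.

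In the other classes no member was called, and the members with the smallest p are given as values. Cardiomyocyte-like nuclei had 0 of 48 members called (0.00797% of 12544 genes) and 6 of 48 at an unadjusted p under 0.05 (4.25% of all genes). The smallest p there was that of Epha3, with 15.2, 17.6, 8.85 and 5.97 CPM, a log2 fold change of 1.12 (standard error 0.24) and an edgeR adjusted p = 0.416. Endocardial-like nuclei had 0 of 35 called (0.0466%) and 8 of 35 at an unadjusted p under 0.05 (5.12%). After Slit3 came Efna5, lower in both injured-father hearts at 364, 293, 679 and 479 CPM, with -0.83 (standard error 0.19, edgeR adjusted p = 0.173). Epha7, which was highest in this class, had -0.56 (edgeR adjusted p = 0.494). Without uninjured-father heart 2 Efna5 was called there (-1.06, edgeR adjusted p = 2.97e-05).

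Vascular endothelial-like nuclei had 0 of 43 members called (0.0176%) and 3 at an unadjusted p under 0.05 (5.32%). Robo2 was lower in both injured-father hearts at 71.6, 49.6, 99.0 and 90.4 CPM, a log2 fold change of -0.63 (edgeR adjusted p = 0.716), and Robo4 was at -0.52 (edgeR adjusted p = 0.776). Robo2, Robo4 and Slit3 were thus the 3 members with the smallest p here, and none passed. Without injured-father heart 1, Robo2 (-0.89, edgeR adjusted p = 0.00282) and Slit3 (0.67, edgeR adjusted p = 0.037) were called. Pericyte-like nuclei had 3 of 39 members at an unadjusted p under 0.05 (4.21%), with Plxna4 at 0.55 and Ntn1 at 0.48 after Slit3.

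Smooth muscle-like nuclei had 0 of 20 members called (0.0458%) and 2 at an unadjusted p under 0.05 (4.92%): Slit2 at 158, 147, 76.3 and 68.8 CPM, a log2 fold change of 1.04 (edgeR adjusted p = 0.701), and Efna5 at -0.59, followed by Sema6a at 0.58. Efna5 was called there without injured-father heart 1 (-1.13, edgeR adjusted p = 0.0167). Lymphatic endothelial-like nuclei had 0 of 26 called (0%) and 2 at an unadjusted p under 0.05 (5.45%), Robo1 as above and Efnb2 at 332, 474, 542 and 698 CPM with -0.60 (edgeR adjusted p = 0.75), then Slit2 at -0.91. There 7 of the 26 members had a positive log2 fold change and the median was -0.17, against 51.4% positive and a median of 0.01 over all genes.

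Macrophage- or monocyte-like nuclei had 0 of 24 members called (0%) and 2 at an unadjusted p under 0.05 (4.49%), with Plxna1 at -0.86, Plxnc1 at 0.63 and Sema3c at -0.78. Plxnc1 there was 253, 122, 114 and 129 CPM, and injured-father heart 1 stood above the other three. Without injured-father heart 2, it was called (1.06, edgeR adjusted p = 0.0255). Fibroblast-like nuclei, with the most members tested of the 9 classes, had 0 of 50 called (0.00804%) and 3 at an unadjusted p under 0.05 (3.08%): Unc5c at 0.46, Slit2 at 0.33 and Sema3d at 0.38. B-lymphocyte-like nuclei had 0 of 18 called (0%) and 2 at an unadjusted p under 0.05 (2.86%), Epha4 and Slit3, followed by Plxnc1 at 0.92.

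Over all nuclei 0 of 61 members were called (0.101% of 14891 genes) and 7 had an unadjusted p under 0.05 (6.99%). Plxnc1 had 0.41 (standard error 0.12, edgeR adjusted p = 0.479), Epha3 0.53 and Plxnb1 -0.43. In such sums fewer nuclei of a class and less RNA per nucleus cannot be told apart. For the interaction, 13 of 51 members had an unadjusted p under 0.05, against 5.17% of all genes. DESeq2 called no member in any class but Slit3 in pericyte-like nuclei. At its unadjusted p under 0.05 it counted 8 of 61 members over all nuclei, against 838 of 14891 genes. Cardiomyocyte-like nuclei had 5 of 48 members (304 of 12544 genes), endocardial-like 5 of 35 (103 of 8579) and vascular endothelial-like 3 of 43 (169 of 11344). There were 2 of 18 in B-lymphocyte-like (13 of 4685), 2 of 50 in fibroblast-like (155 of 12444) and 2 of 39 in pericyte-like nuclei (42 of 10104). Lymphatic endothelial-like (74 of 5784 genes), macrophage- or monocyte-like (80 of 7993) and smooth muscle-like nuclei (48 of 4366) had 0 members. With 2 hearts a group, an exact permutation test over the 6 splits of the hearts cannot go below p = 0.333, so single values were not tested that way.

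Other genes of these pathways, a list of 77 co-receptors and effectors that included neuropilins, DCC and neogenin, FLRT and latrophilin partners of Unc5 and the cytoplasmic effectors of each receptor, were read in the same fits. None of the 44 to 76 tested per class was called in either direction, by edgeR or by DESeq2, and edgeR counted 1 to 6 of them per class at an unadjusted p under 0.05. Lrrc4c, a postsynaptic protein that binds netrin-G, had the smallest p in cardiomyocyte-like nuclei at 92.0, 110.3, 51.2 and 23.5 CPM, a log2 fold change of 1.42 (edgeR adjusted p = 0.416), and is itself 1 of the 10 leading genes of the Nppa and Myl4 cluster. Within the main cardiomyocyte-like cluster alone it was 0.21 (edgeR adjusted p = 0.9999). Without injured-father heart 2 it was called at 1.27 (edgeR adjusted p = 4.49e-08) and without uninjured-father heart 1 at 2.15 (edgeR adjusted p = 0.037). Dpysl2, which carries the signal of Sema3a to microtubules, followed at 0.71, and at 0.07 within the main cluster alone. Elsewhere the smallest p belonged to Srgap3 at 0.96 in endocardial-like, Lrrc4 at -0.77 in fibroblast-like, Evl at -0.54 in pericyte-like, Nck2 at 0.70 in smooth muscle-like, Adgrl3 at 1.17 in macrophage- or monocyte-like, Rgma at 2.02 in lymphatic endothelial-like, Kalrn at 0.93 in B-lymphocyte-like and Lrrc4c at 0.56 in vascular endothelial-like nuclei. Without injured-father heart 1, Lrrc4 was called in fibroblast-like nuclei (-0.87, edgeR adjusted p = 0.00269) and Adgrl3 in macrophage- or monocyte-like nuclei (1.53, edgeR adjusted p = 0.000201).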

How the data were processed

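The authors deposited UMI counts per gene and nucleus, which the file headers credit to Cell Ranger 6.0.1; the submitters' processing notes also name Seurat 4.0. The sources used here do not name the genome build or annotation behind the counts. Nuclei with at least 500 UMIs, at least 300 genes and under 5% mitochondrial UMIs were kept, and doublets called by Scrublet (9.62% to 14.9% per library) were removed. Clustering used scanpy 1.11.5 and leidenalg 0.10.2 with 30 components, 20 neighbours and resolution 1, on 2968 of the 3000 most variable genes, the 32 members among them being left out. Clusters were named from 17 marker lists, and 3 clusters that also scored for an unrelated list stayed unnamed, a rule chosen after the clusters were seen. Counts summed per class and library were fitted with edgeR 4.0.16 (TMM scaling, filterByExpr with a minimum count of 10, quasi-likelihood F test, two-sided, Benjamini-Hochberg over all genes, adjusted p under 0.05), with DESeq2 1.42.0 as an alternative. Standard errors were derived from the log2 fold change and F. The fits were tested on simulated data.

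Members and lists were chosen with earlier results of these data known. Named were all called members, the 3 members with the smallest p per class, 3 members per role by the ratio of the highest to the median class, members differing 4-fold between clusters of at least 100 nuclei, and up to 2 pathway genes per class. Same-numbered libraries were not treated as pairs. Alternatives were other scaling, no filter, DESeq2, a replicate block, members kept among the variable genes, doublets kept, at least 1000 UMIs per nucleus, detection at 50 CPM, each library left out and, added after seeing the data, the largest cluster of each class. Counting intervals cover counting error only.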

Additional observations from a re-analysis of the deposited data

Results flagged for a closer look

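The father difference of Epha4 varied between the 9 tested classes by the interaction of class and father group (edgeR adjusted p = 0.0132), with log2 fold changes of 0.89 in cardiomyocyte-like and -0.33 in endocardial-like nuclei. In B-lymphocyte-like nuclei it was 2.75, from 43 UMIs in injured-father and 3 in uninjured-father hearts. The father difference of Robo1 varied in the same test (edgeR adjusted p = 0.0366), with -0.82 in cardiomyocyte-like and 1.54 in lymphatic endothelial-like nuclei, the latter 0.26 without injured-father heart 1. Neither passed with the largest cluster of each class only, nor without either uninjured-father heart, where no member was called.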

How the results depend on the processing

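With 2 hearts a group and 15651493 to 32862239 UMIs a library, the number of hearts and the size of small classes limit the precision. Of 580 log2 fold changes of named genes recomputed under the alternatives, 549 kept direction and side of the threshold, 28 passed it where they had not, 1 lost it and 2 reversed: in the largest cardiomyocyte-like cluster Epha3 gave -0.0623 and Robo1 0.00326. Without the filter on low counts more genes were called in all. In cardiomyocyte-like nuclei 4 of 66 members were called (177 of 17837 genes) and in endocardial-like 2 of 62 (42 of 15371). Lymphatic endothelial-like nuclei had 1 of 58 (70 of 14578), vascular endothelial-like 1 of 65 (53 of 17096) and the interaction 9 of 66 (216 of 19100). Pathway genes called were 2 in cardiomyocyte-like, 1 in fibroblast-like (45 of 17629 genes) and 3 in macrophage- or monocyte-like nuclei (35 of 15328). With doublets kept 0 members were called in pericyte-like nuclei (4 of 10072 genes) and 1 by the interaction (6 of 12583 genes). With the largest cluster of each class the interaction called 0 members (5 of 12177 genes). Leaving out each library in turn gave 0 to 1 members over all nuclei and in lymphatic endothelial-like, macrophage- or monocyte-like and smooth muscle-like nuclei, 0 to 3 in endocardial-like, 0 to 2 in vascular endothelial-like nuclei and 0 to 6 by the interaction. It gave 0 to 5 pathway genes over all nuclei, 0 to 1 in cardiomyocyte-like and 0 to 2 in fibroblast-like, lymphatic endothelial-like and macrophage- or monocyte-like nuclei. Each such fit leaves 1 heart in a group, which is assumed to vary like the other group. The cause of these changes was not tested. The highest class was the same for 49 of 49 members with members among the variable genes, 47 at 1000 UMIs, 44 with doublets kept and 45 to 48 without 1 library. The labels do not say whether same-numbered libraries share a litter, a father or a batch. The correlation of their deviations was -0.00909 to 0.0837, which cannot settle whether they are pairs. With the replicate block 1 member was called in lymphatic endothelial-like nuclei (Robo1, log2 fold change 1.72), where 39 of 5784 genes were called. A pathway gene was called over all nuclei, where genes called went from 15 to 210, and 1 in cardiomyocyte-like nuclei (25 of 12544 genes). Not run, with under 50 nuclei in a library, were B-lymphocyte-like and lymphatic endothelial-like nuclei at 1000 UMIs and lymphatic endothelial-like nuclei with doublets kept.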

Other observations

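A mesothelial- or epicardial-like cluster of 76 nuclei was too small for the level comparison, with 25, 45, 4 and 2 nuclei in the 4 libraries, and its values are given without comparison. The epicardium is the outer lining of the heart. Over the 4 libraries together Slit3 was at 4770.1 CPM there, from 643, 946, 21 and 36 UMIs, and Plxna4 was at 3689, 5246, 5351 and 3004 CPM. Efna5 was at 4298 CPM, Sema3c at 1217 CPM, Sema3d at 1093 CPM, Sema5a at 913 CPM, Ephb1 at 406 CPM and Sema3e at 148 CPM.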
